A study of Mus musculus with 8 samples.

Results

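Imprinted genes, which are transcribed mainly from a single parental allele, were followed through ribosome footprint and RNA-seq tables of mouse embryonic stem cells with and without METTL5. METTL5 is the methyltransferase that places N6-methyladenosine on 18S ribosomal RNA. The genes were a list of 32 symbols given by name, and all 32 were found among the 23845 genes of each table. They fall into 15 imprinted clusters or single loci, and 16 of the 32 lie on chromosome 7. By their known allele, 20 are paternally and 10 maternally expressed, Gnas differs by transcript, and Grb10 is maternal in most tissues but paternal in neurons. Of the 32, 25 encode proteins and 7 are noncoding RNAs.

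The cells were mESC, pluripotent cells from the early embryo that divide in culture, of wild-type (WT) or METTL5 knockout (KO) genotype at passages 5 to 10. Each genotype had 2 RNA-seq libraries of total RNA and 2 Ribo-seq libraries of RNA protected by single ribosomes. The series calls the replicates biological but names neither the knockout clones nor their number, so the p-values speak only for the spread among the libraries at hand. The labels give no treatment and no strain. Nothing in the tables separates parental alleles, so every value below is the sum of both.

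Imprints are laid down as DNA methylation in the egg or sperm at control regions, each of which governs a cluster of genes in the embryo. A control region often holds the promoter of a long noncoding RNA or works as an insulator, and the genes around it are then expressed from opposite alleles. Many imprinted genes act on fetal growth and the placenta, with a tendency of paternally expressed genes to promote growth and of maternally expressed genes to restrain it. In cultured embryonic stem cells imprints can be lost or gained from line to line.

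The footprint libraries held 8401463 to 11487964 expected counts and the RNA-seq libraries 152195 to 219567, so precision was much higher for footprints. Levels are given in CPM, counts scaled to a common library total, and 3 counts corresponded to 0.261 to 0.357 CPM in footprints and 13.7 to 19.7 CPM in RNA-seq. Mettl5, the targeted gene, stood at 41.2 and 45.9 CPM in WT and 4.08 and 4.79 CPM in KO footprints (log2 fold change -3.27, edgeR quasi-likelihood test, adjusted p = 0.00131). In RNA-seq it stood at 397 and 601 CPM in WT and 256 and 317 CPM in KO and was not called (-0.88, edgeR adjusted p = 0.126). Of 8 pluripotency markers all were detected in footprints, with sums of 4529 and 5917 CPM in WT and 5908 and 5844 CPM in KO. Tfcp2l1 was the 1 of them that rose (0.76, edgeR adjusted p = 0.0491). Zfp42 (Rex1), at 1084 and 1096 CPM in WT and 754 and 691 CPM in KO, was called lower by DESeq2 and not by edgeR (-0.58, adjusted p = 0.0904). Over all genes, edgeR's quasi-likelihood test with Benjamini-Hochberg adjustment called 301 of 12315 genes in footprints below an adjusted p of 0.05, which is 2.44%, with 225 higher in KO (1.83%) and 76 lower (0.617%).

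In footprints, Peg3, Magel2, Kcnq1ot1 and Gnas rose in the KO in the fit without a replicate block, and that fit called no imprinted gene lower. These 4 were among 26 of the 32 that passed the filter on low counts, and the other 22 did not pass the test in either direction. Of the 6 with a negative fold change 1, Mest, had an unadjusted p under 0.05, and DESeq2 also called 4 higher and 0 lower. The share of all tested genes called higher was 1.83% (225 of 12315). The median log2 fold change of the 26 was 0.39, beside 0.01 over all tested genes, and 20 of them had a positive and 6 a negative value. Both KO libraries lay above both WT libraries for 13 of the 26, where 24.3% of all tested genes did, and below them for 3, where 25.5% did. Magel2 and Snrpn passed the filter mainly through the KO libraries, so these counts describe the tested genes only. Of the paternally expressed genes 17 of 20 were tested and 3 rose, with a median of 0.40. Of the maternally expressed genes 7 of 10 were tested and none was called, with a median of 0.32. An unadjusted edgeR p under 0.05 was reached by 10 of the 26. Among them were 7 of the 17 paternal genes and 2 of the 7 maternal genes. DESeq2 called 3 of the 17 higher and 0 of the 7. In the same edgeR fit 2387 of all 12315 tested genes had an unadjusted p under 0.05, in either direction. The difference between paternal and maternal genes was not tested.

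How many imprinted genes passed depended on whether same-numbered libraries were paired. The names of the deposited footprint tables carry the same 2 tags in both genotypes, 1 for each replicate number, and the labels do not say what the tags stand for. Below, the first value of each genotype belongs to replicate number 1 and the second to number 2. With the replicate number as a block, edgeR called 13 of the 26, 11 higher and 2 lower, where 24% of all 12315 tested genes were called, 12.7% higher and 11.3% lower. The 4 rising genes stayed called, Rian, Meg3, Dlk1, Nnat, Plagl1, Ndn and Grb10 joined them, and the 2 called lower were Mest (-0.55, adjusted p = 3.36e-05) and Cdkn1c (-0.48, adjusted p = 0.0261). A gene given below as not passing did not pass without the block, which does not show that it was unchanged.

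**Figure D1:**
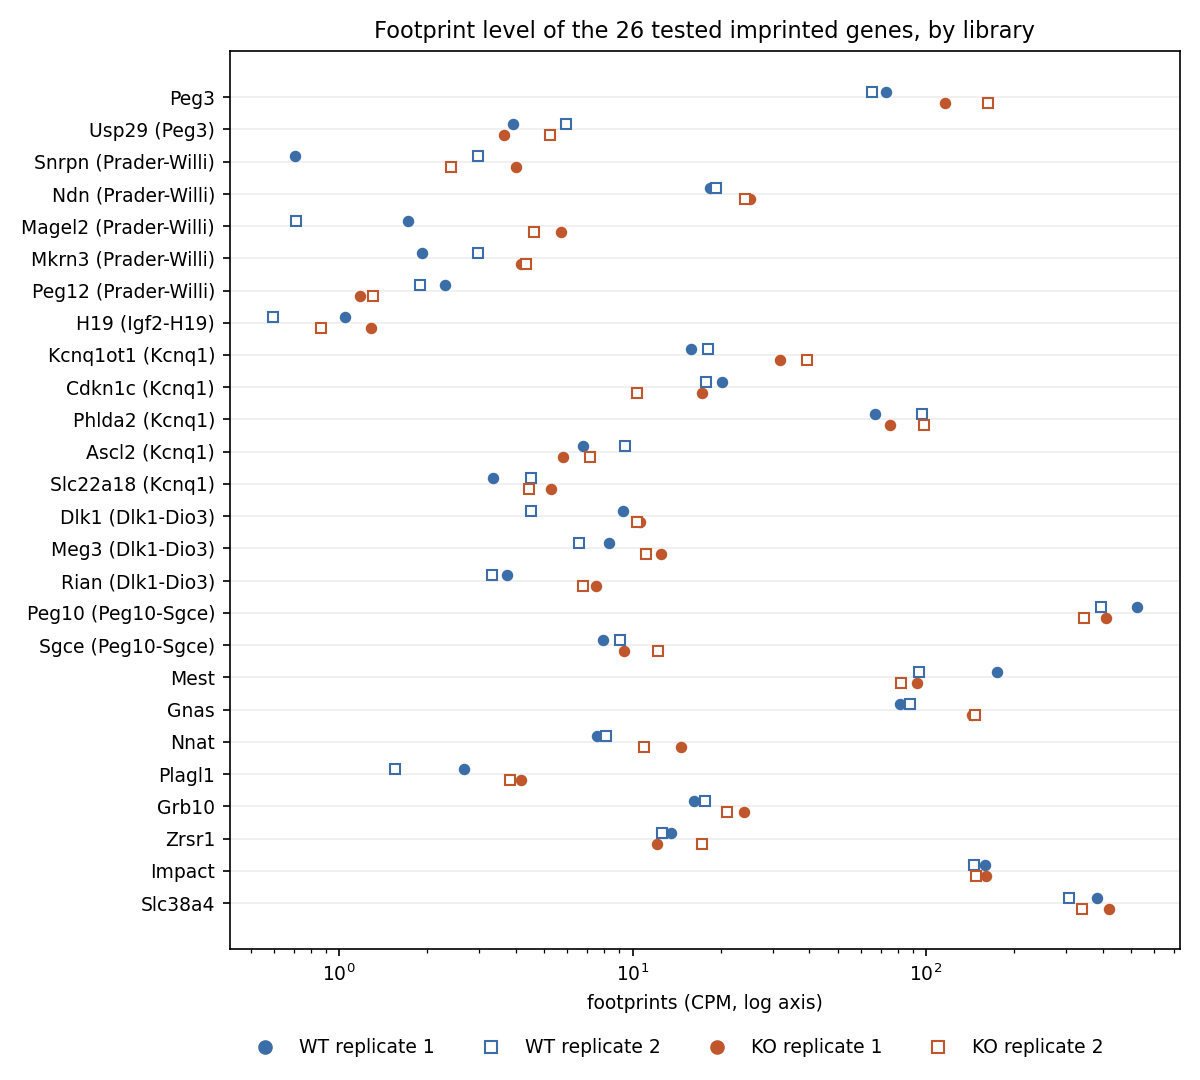
Footprint level in CPM on a log axis for the 26 tested imprinted genes, with WT libraries in blue and KO libraries in orange, filled circles for replicate 1 and open squares for replicate 2. The points span from H19 at 0.595 CPM to Peg10 at 521 CPM, and the KO points of Peg3, Magel2, Kcnq1ot1 and Gnas lie to the right of their WT points.

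Per length, the order of the genes was led by placental and growth genes. Phlda2, a growth-restraining protein of the placenta, had the highest deposited TPM in footprints, with 146.67 to 219.91 TPM in single libraries and a mean of 186 TPM over all 4. Slc38a4, an amino acid transporter, followed at 145 TPM, and the library ranges of the 2 genes overlapped. Gnas (105 TPM), the stimulatory G protein subunit, and Peg10 (98.6 TPM), a domesticated retrotransposon gene needed for the placenta, came next, and their ranges overlapped too. This order pools the genotypes: in WT alone Peg10 (108 TPM) and Mest (82.9 TPM) stood above Gnas (78.4 TPM), and in KO alone Gnas (132 TPM) stood above both. Impact and Mest followed at 70.5 and 68.4 TPM and also overlapped, and from Peg3 (24.8 TPM) downward the levels were lower. Kcnq1ot1 had 0.498 TPM, since its counts are spread over an annotated length of 83437 bases. The 6 genes that were not tested had at most 8 footprint counts in any library: Zim1, Kcnq1, Rtl1, Mirg, Airn and Peg3os, the last of which was listed at 0 in all 4.

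The Peg3 cluster on chromosome 7 holds Peg3, a zinc finger protein expressed from the paternal allele, and Usp29, a paternally expressed ubiquitin protease gene read in the opposite direction from the same start region. The starts of the 2 genes in the RefSeq promoter table lie 164 bases apart. The stretch between their annotated gene bounds, chr7:6730463-6730558 on the plus strand of GRCm38.p6, is shown because both genes are read outward from it. Capitals mark CCAAT, searched on both strands.
Peg3-Usp29: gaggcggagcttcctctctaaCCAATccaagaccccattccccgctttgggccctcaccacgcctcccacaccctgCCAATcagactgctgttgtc
It holds 2 CCAAT matches and 3 CpG in 96 bases. At least 1 CCAAT match stands in 33.85% of the 32851 RefSeq promoters, counted over the 250 bases before the start, so a match describes these letters and no more.

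Peg3 footprints stood at 73.0 and 65.6 CPM in WT and 115.8 and 162.6 CPM in KO. Every KO library lay above every WT library, with a log2 fold change of 1.03 (SE 0.20, edgeR quasi-likelihood, adjusted p = 0.0392). The call rested on the second KO library: without it the log2 fold change was 0.71 with an adjusted p of 0.147. Usp29 stood at 3.92 and 5.95 CPM in WT and 3.65 and 5.22 CPM in KO, so its groups overlapped (-0.11, adjusted p = 0.898). Its direction reversed when WT library 2 or KO library 1 was left out. Exons of Usp29 and of Zim3 on the other strand overlap by 2582 bases, so its value is uncertain. The ratio of Peg3 to Usp29 counts was 18.6 and 11.02 in WT and 31.8 and 31.1 in KO footprints, so both KO ratios were above both WT ratios. No test of that ratio was run. Zim1, the maternally expressed zinc finger gene next to them, had 2 or 3 counts in each footprint library.

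The Prader-Willi cluster, also on chromosome 7, is controlled from the Snrpn promoter and is expressed from the paternal allele. Magel2, which encodes a regulator of a ubiquitin ligase on endosomes, stood at 1.72 and 0.714 CPM in WT and 5.69 and 4.61 CPM in KO. That was 18 and 6 counts against 53 and 53, and the log2 fold change was 2.03 (SE 0.42, adjusted p = 0.0429). It was the largest fold among the tested genes of the list, at a low level, and the call was lost without KO library 1 (1.93). The 250 bases before its start, chr7:62376729-62376978 on the plus strand of GRCm38.p6, are shown for comparison with the other rising genes.
Magel2: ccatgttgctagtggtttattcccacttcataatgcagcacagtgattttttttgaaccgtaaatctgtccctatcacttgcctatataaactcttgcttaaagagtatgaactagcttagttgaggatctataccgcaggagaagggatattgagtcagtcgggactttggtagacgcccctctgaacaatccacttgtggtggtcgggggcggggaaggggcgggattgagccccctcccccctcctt
This stretch holds 7 CpG and none of the CCAAT letters on either strand.

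The neighbours of Magel2 did not pass the test. Ndn, the related MAGE protein necdin, stood at 18.3 and 19.3 CPM in WT and 25.2 and 24.1 CPM in KO (0.40, adjusted p = 0.260). Mkrn3, a makorin ubiquitin ligase, stood at 1.91 and 2.98 CPM in WT and 4.18 and 4.35 CPM in KO (0.84, adjusted p = 0.229). Both genes had their KO libraries above their WT libraries. Peg12, a Frat-family gene, had the opposite order, with 2.29 and 1.89 CPM in WT and 1.18 and 1.31 CPM in KO (-0.74, adjusted p = 0.374). Its relatives Frat1 and Frat2 and the relatives of Mkrn3, Mkrn1 and Mkrn2, lie outside imprinted clusters. Mkrn1 stood at 410 and 548 CPM in WT and 308 and 293 CPM in KO (-0.66, adjusted p = 0.0936).

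Snrpn, which encodes the spliceosomal protein SmN, stood at 0.709 and 2.97 CPM in WT and 3.99 and 2.40 CPM in KO, and the groups overlapped (0.86, adjusted p = 0.473). Its value moved with the WT libraries, from 0.10 without the first (adjusted p = 0.936) to 2.23 without the second (adjusted p = 0.0405). It shares a bicistronic transcript with Snurf, and the counts were split between the 2 entries very unevenly. Snurf had 1396 and 1038 counts in WT and 1356 and 1954 in KO, where Snrpn had 7.42, 24.9, 37.2 and 27.6, so the Snrpn value is uncertain. Snurf itself, with a log2 fold change of 0.31, was not called (adjusted p = 0.336). Snrpb, the close relative of Snrpn that is not imprinted, stood at 257 and 277 CPM in WT and 264 and 222 CPM in KO (-0.12, adjusted p = 0.712).

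The Kcnq1 cluster, further along chromosome 7, is silenced on the paternal allele by Kcnq1ot1, a long noncoding RNA transcribed from inside the Kcnq1 gene against its direction. Its promoter region is part of the control region of the cluster. The 250 bases before its start, chr7:143296548-143296797 on the minus strand of GRCm38.p6, are shown with CCAAT on either strand in capitals.
Kcnq1ot1: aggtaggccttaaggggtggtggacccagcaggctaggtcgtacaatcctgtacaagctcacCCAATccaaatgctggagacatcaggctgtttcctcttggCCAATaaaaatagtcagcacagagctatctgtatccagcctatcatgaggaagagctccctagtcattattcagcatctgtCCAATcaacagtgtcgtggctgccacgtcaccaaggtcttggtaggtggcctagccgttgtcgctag
It holds 3 CCAAT matches and 5 CpG, and 2.79% of the 32851 RefSeq promoters hold at least 3 such matches. The 24 imprinted genes with an entry in the promoter table have 36 windows, of which 13 hold at least 1 CCAAT, beside 33.85% of all promoters. The motif TGCCGC, also searched on both strands, stood in 5 of the 36 windows and in 8.68% of all promoters.

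Reads in Ribo-seq libraries on Kcnq1ot1 stood at 15.9 and 18.1 CPM in WT and 31.8 and 39.4 CPM in KO, and the groups did not overlap. The log2 fold change was 1.09 (SE 0.21, edgeR quasi-likelihood, adjusted p = 0.0350), and the call was lost without KO library 2 (0.88, adjusted p = 0.148). Kcnq1ot1 is not known to be translated, and whether its fragments came from ribosomes or from other RNA in the monosome fraction was not tested. The maternally expressed genes of the cluster did not pass the test. Cdkn1c, the cell cycle inhibitor p57, stood at 20.2 and 17.9 CPM in WT and 17.3 and 10.4 CPM in KO (-0.47, adjusted p = 0.347). Phlda2 stood at 67.2 and 96.9 CPM in WT and 75.1 and 98.4 CPM in KO, where the spread within a genotype was larger than the difference between them (0.10, adjusted p = 0.849). Ascl2, a trophoblast transcription factor, and Slc22a18, a membrane transporter, had log2 fold changes of -0.29 and 0.32 with overlapping groups. The inhibitors Cdkn1a and Cdkn1b, relatives of Cdkn1c that are not imprinted, had 0.58 and 0.18 and were not called. Kcnq1 itself, a potassium channel, had 1 count in 1 footprint library and 0 in the other 3.

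At the Igf2-H19 locus, H19, a maternally expressed noncoding RNA, stood at 1.05 and 0.595 CPM in WT and 1.29 and 0.870 CPM in KO (0.35, adjusted p = 0.779). These values were 5 to 12 counts per library, so the precision was low. Whether the fragments on H19 came from ribosomes was not tested. Its neighbour Igf2, the paternally expressed growth factor, is not among the 32 genes and rose from 1.91 and 1.18 CPM in WT to 12.7 and 29.2 CPM in KO (3.76, adjusted p = 0.0151). That call was lost without either WT library, with adjusted p of 0.183 and 0.168.

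The Dlk1-Dio3 cluster on chromosome 12 pairs paternally expressed protein genes with maternally expressed noncoding RNAs. It is known for losing expression of its noncoding RNAs in many pluripotent lines. Meg3, the first of these RNAs, stood at 8.31 and 6.55 CPM in WT and 12.6 and 11.1 CPM in KO (0.68, adjusted p = 0.162). Rian, a host of small nucleolar RNAs, stood at 3.73 and 3.33 CPM in WT and 7.51 and 6.79 CPM in KO (1.02, SE 0.27, adjusted p = 0.0872), and it was called with no filter (adjusted p = 0.0203). Mirg, the host of a microRNA cluster, had 5 and 4 counts in WT and 8 and 8 in KO and was below the filter. Whether fragments on these noncoding RNAs came from ribosomes was not tested. Dlk1, a paternally expressed Notch ligand-like protein, stood at 9.27 and 4.52 CPM in WT and 10.6 and 10.4 CPM in KO (0.60, adjusted p = 0.356). The WT libraries decided its value, which was 1.23 without WT library 1 (adjusted p = 0.0217) and 0.18 without WT library 2 (adjusted p = 0.782). For these 4 genes both KO libraries lay above both WT libraries, and the 3 that were tested passed with the replicate block but not without it. Of all tested genes 24.3% had that order, and 12.7% were called higher with the block. Those shares do not cover Mirg, which was not tested. Rtl1, a retrotransposon-derived gene on the paternal allele, had a footprint count only in WT library 1, at about 1.

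Gnas on chromosome 2, from 174284320 to 174346744 on GRCm38.p6, produces several transcripts from alternative promoters, some maternal, some paternal, and the main one from both alleles in most tissues. The tables hold all of them as 1 entry. Its exons also overlap the antisense RNA Nespas by 988 bases, so reads there cannot be assigned with certainty. Gnas stood at 81.4 and 88.4 CPM in WT and 143.4 and 146.8 CPM in KO, with close replicates and no overlap. Its log2 fold change was 0.79 (SE 0.15, edgeR quasi-likelihood, adjusted p = 0.0345). The call was lost without KO library 1 (0.85, adjusted p = 0.0703) and without KO library 2 (0.72, adjusted p = 0.123). Nnat, a proteolipid of the endoplasmic reticulum on the same chromosome, stood at 7.55 and 8.09 CPM in WT and 14.6 and 10.97 CPM in KO (0.71, adjusted p = 0.144). Its groups did not overlap either, but it did not pass the test.

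The paternally expressed genes on chromosomes 6 and 11 have to be read beside their neighbours. The median log2 fold change of tested genes was -0.38 on chromosome 6 (536 genes) and -0.25 on chromosome 11 (999 genes), against 0.07 on chromosome 7 (917 genes). Mest, a hydrolase family protein on chromosome 6, stood at 174.6 and 94.5 CPM in WT and 93.1 and 82.4 CPM in KO (-0.61, adjusted p = 0.258). Only the first WT library stood well above the rest, and without it the value was -0.09 (adjusted p = 0.865). Mest was called lower without WT library 2 (-0.99, adjusted p = 0.00557), with no filter (adjusted p = 0.0264) and with the replicate block, and stood at -0.23 with the chromosome medians removed (adjusted p = 0.723). Peg10 stood at 521 and 394 CPM in WT and 410 and 345 CPM in KO, and the groups overlapped (-0.27, adjusted p = 0.468). With the chromosome medians removed its sign reversed to 0.11. Sgce, a sarcoglycan that shares the start region of Peg10, had 0.37 (adjusted p = 0.470). Its values were 7.93 and 9.05 CPM in WT and 9.33 and 12.2 CPM in KO.

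On chromosome 11, Grb10, an adaptor that restrains insulin signalling, stood at 16.2 and 17.6 CPM in WT and 24.03 and 20.98 CPM in KO footprints (0.42, adjusted p = 0.258). Zrsr1, a splicing factor gene that arose by retroposition, stood at 13.5 and 12.6 CPM in WT and 12.1 and 17.2 CPM in KO (0.19, adjusted p = 0.730). Plagl1, a zinc finger growth regulator on chromosome 10, stood at 2.68 and 1.55 CPM in WT and 4.18 and 3.83 CPM in KO (0.91, adjusted p = 0.218). Impact, an inhibitor of the stress kinase GCN2, was at nearly the same level in all libraries, with 159 and 145 CPM in WT and 160 and 148 CPM in KO (0.03, SE 0.14). Slc38a4 stood at 382 and 307 CPM in WT and 419 and 340 CPM in KO (0.15, SE 0.17). Slc38a2, a related transporter that is not imprinted, stood at 654 and 483 CPM in WT and 728 and 603 CPM in KO (0.24, adjusted p = 0.549). Impact and Slc38a4 are among the best covered of the 32 genes, and for both the difference between genotypes was smaller than the spread between replicates.

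**Figure D2:**
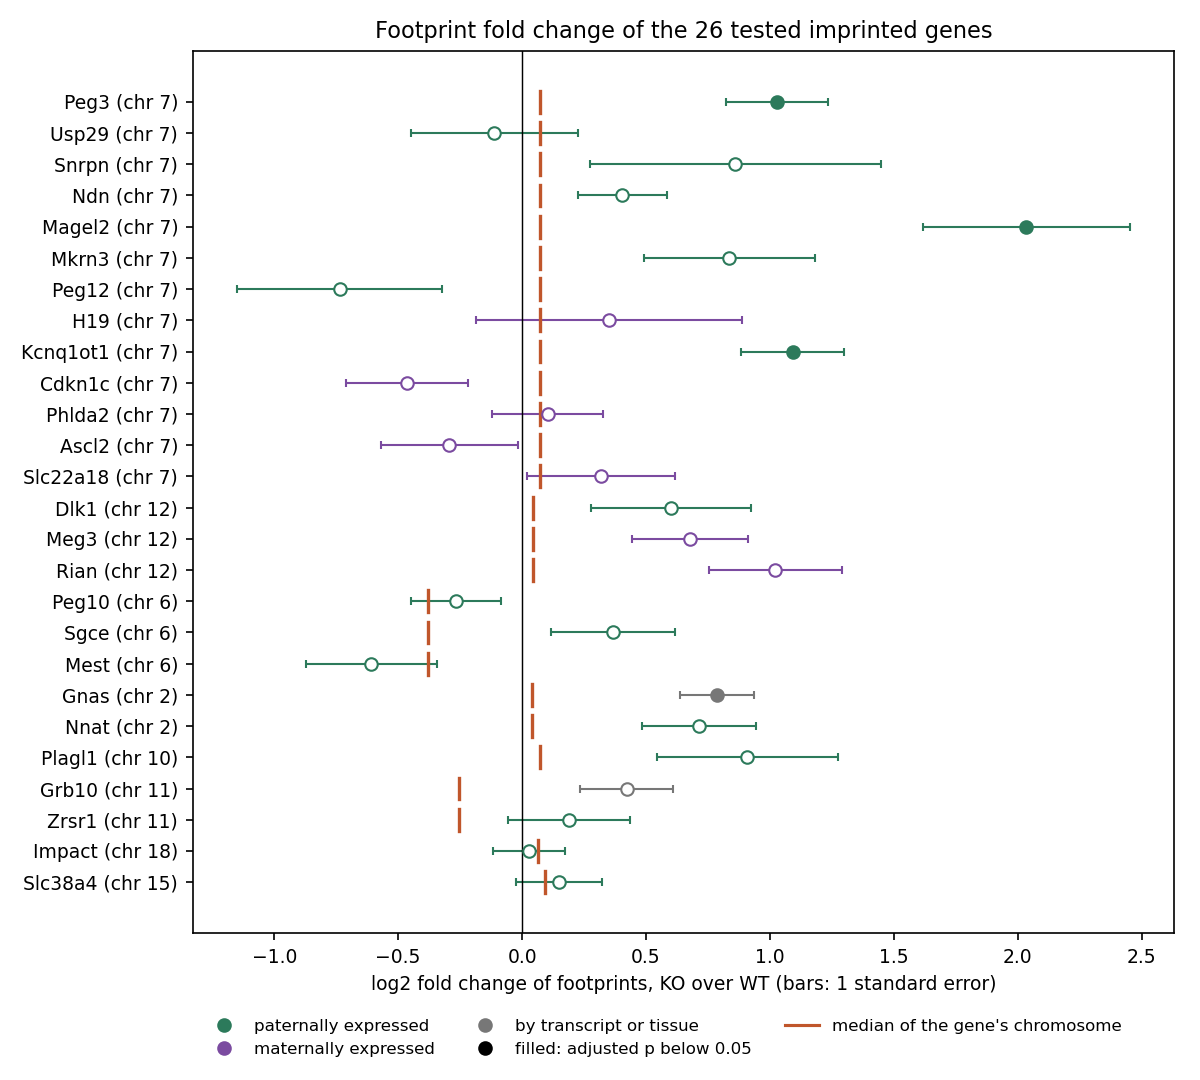
Log2 fold change of footprints, KO over WT, with 1 standard error for the 26 tested imprinted genes. Green marks paternally and purple maternally expressed genes, filled points passed the test (adjusted p below 0.05), and the orange tick is the median of all tested genes of the chromosome, which lies at -0.38 for Peg10, Sgce and Mest.

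Removing the median of each gene's chromosome from its fold changes left 2 of the 4 calls. Kcnq1ot1 and Gnas stayed called, and Peg3 (0.96, adjusted p = 0.0565) and Magel2 (1.96, adjusted p = 0.0550) did not. Markers of other cell types moved with genotype in the same footprint libraries, where 1.83% of all tested genes were called higher and 0.617% lower. Pdgfra stands in both the fibroblast and the endoderm list, and Eomes and Hand1 in both the mesoderm and the trophoblast list. Of 18 fibroblast markers 15 were tested and 3 rose (Col3a1, Col5a1 and Tagln). An unadjusted edgeR p under 0.05 was reached by 12 of the 15, beside 2387 of all 12315 tested genes. Of the 12, Pdgfra (-1.20) and Thy1 (-0.51) were lower. The summed level of the 18 was 1944 to 2241 CPM in WT and 3374 to 3456 CPM in KO, with Lum at 0 in all 4. Fn1, which was not called, took 1769 and 1674 CPM in WT and 2605 and 2456 CPM in KO. Of 12 mesoderm markers 7 were tested and 3 rose (Fgf8, Lhx1 and T), with sums of 5.25 to 6.73 CPM in WT and 22.1 to 34.9 CPM in KO. Of 12 trophoblast markers 6 were tested and 3 rose (Krt8, Krt18 and Krt19), while Tfap2c was the 1 with a negative value (-0.11). The sums were 140 CPM in both WT libraries and 362 to 398 CPM in KO, with Tpbpa and Prl3d1 at 0. Krt8 took 34.9 and 31.4 CPM in WT and 121 and 143 CPM in KO, and Krt18 44.5 and 36.7 against 141 and 150 CPM. Below the filter, Elf5 had 8 and 4 counts in WT and 0 and 1 in KO, and Cdx2 2 and 1 against 8 and 18. Of 16 endoderm markers 13 were tested. Apoe rose and Col4a1, Col4a2, Cubn and Dab2 fell. The median of the 13 was -1.28, and 11 of them had a negative value. Of these 11, 10 had an unadjusted edgeR p under 0.05, beside 2387 of all 12315 tested genes in either direction. The 16 summed to 1767 to 2043 CPM in WT and 2117 to 2227 CPM in KO. Of that, Apoe took 407 and 476 CPM in WT and 1268 and 1147 CPM in KO. Of 10 neuroectoderm markers 9 were tested and 1, Sox11, rose by edgeR, where 7 of the 9 had a positive value and the median was 0.68. DESeq2 called 2 higher and 1 lower, Tubb3, which stood at 144 and 91.9 CPM in WT and 65.7 and 56.5 CPM in KO. The sums, which Tubb3 weighs on, were 196 to 257 CPM in WT and 226 to 249 CPM in KO. The part of these cell types in the imprinted values was not tested, and a change in the number of such cells and in RNA per cell cannot be told apart.

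The machinery that sets and keeps imprints was measured in the same footprints. Of 14 genes that maintain imprints all were tested and edgeR called none, with 2 at an unadjusted p under 0.05 and a median of -0.08. DESeq2 called 1, Dppa3, lower. Dppa3, also called Stella, which protects maternal imprints after fertilization, stood at 95.8 and 145.7 CPM in WT and 45.3 and 71.5 CPM in KO (edgeR -1.02, adjusted p = 0.107), and is named after its values were seen. Trim28, the corepressor that binds methylated imprints through ZFP57, stood at 2473 and 2174 CPM in WT and 2419 and 2256 CPM in KO (0.02). Uhrf1, which guides the maintenance methyltransferase, stood at 927 and 713 CPM in WT and 761 and 601 CPM in KO (-0.26, adjusted p = 0.495). Of 9 genes that establish or erase imprints edgeR and DESeq2 called none, with 5 at an unadjusted p under 0.05 and a median of 0.03. Across all tested genes, 2387 of 12315 had such an unadjusted p by edgeR. Dnmt3l, the cofactor of de novo methylation, stood at 628 and 539 CPM in WT and 393 and 382 CPM in KO (-0.58, adjusted p = 0.101). Dnmt3b, a de novo methyltransferase, stood at 347 and 271 CPM in WT and 443 and 448 CPM in KO (0.54, adjusted p = 0.142). The KO and WT libraries of Dnmt3l and Dnmt3b did not overlap, in opposite directions. Of all tested genes 24.3% had both KO libraries above both WT libraries, and 25.5% had them below. DNA methylation itself was not measured.

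Among 51 further imprinted genes outside the set, 32 were tested in footprints. Igf2 and Calcr, the calcitonin receptor, rose. None fell by edgeR or DESeq2, and 5 with a negative value had an unadjusted p under 0.05. Calcr went from 0.669 and 0.476 CPM in WT to 6.11 and 3.22 CPM in KO (2.97, adjusted p = 0.0204), and lost the call without KO library 1 (adjusted p = 0.0569). Their median was -0.04, with 14 positive and 18 negative values. Of 26 relatives of the 32 genes, 20 were tested and edgeR called none, with a median of 0.21. By edgeR 4 of the 20 had an unadjusted p under 0.05, beside 2387 of all 12315 tested genes. DESeq2 called 1, Mkrn1, lower.

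The RNA-seq tables gave a different picture and were much thinner. Of the 32 imprinted genes 23 had under 10 counts in every RNA-seq library, and Ndn, Peg12, Ascl2, Slc22a18 and Mirg were at 0 in all 4. Only 8 passed the filter. Rtl1 and Peg3os rose, Zrsr1 fell, and Grb10, Gnas, Kcnq1ot1, Nnat and Mest did not pass the test. Over all genes, 133 of 2087 were called by edgeR's quasi-likelihood test, which is 6.37%, with 77 higher (3.69%) and 56 lower (2.68%). Of the 8 pluripotency markers 4 were tested in RNA-seq, and all 4 had a negative value with none called. Pou5f1 had 17 and 18 counts in WT and 3 and 4 in KO.

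The entry named Rtl1 stood at 320 and 173 CPM in WT and 1030 and 1142 CPM in KO, from 67.7, 38.0, 157 and 198 counts. Both KO libraries lay above both WT libraries, and the log2 fold change was 2.03 (SE 0.33, edgeR quasi-likelihood, adjusted p = 0.00665). The call held in all 9 alternatives, with log2 fold changes from 1.58 to 2.57. Rtl1 is known for an antisense transcript on the maternal allele that carries microRNAs directed at it. In RefSeq, 11 mature microRNAs of 6 genes lie on the opposite strand inside Rtl1 exons, and all 11 are fully complementary to the Rtl1 transcript. Their seeds, bases 2 to 8, are all different. The 5 below stand for 5 of the 6 genes, with the seed in capitals, and are shown because they mark the strand opposite to Rtl1.
mmu-miR-431-5p: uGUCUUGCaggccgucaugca
mmu-miR-433-3p: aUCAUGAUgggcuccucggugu
mmu-miR-127-3p: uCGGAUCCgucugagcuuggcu
mmu-miR-434-3p: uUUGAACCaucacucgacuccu
mmu-miR-136-5p: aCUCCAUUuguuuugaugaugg
They lie on the plus strand of chr12 in GRCm38.p6, with miR-127-3p at chr12:109592888-109592909 and miR-136-5p at chr12:109595331-109595352. The tables list 5 of the 6 microRNA genes, Mir127, Mir136, Mir431, Mir432 and Mir434, but not Mir433. The counts of the listed 5 were 0 in all 4 RNA-seq libraries. In footprint libraries they summed to 4 and 6 counts in WT and 4 and 25 counts in KO, with 25 in KO library 2 alone. No source used here gives the strand setting of the counting, so reads of Rtl1 and of its antisense transcript cannot be told apart.

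Peg3os is annotated as an antisense RNA at chr7:6706760-6707624, and all of its 865 bases lie inside exons of Peg3. It stood at 279 and 250 CPM in WT and 926 and 657 CPM in KO in the RNA-seq tables, with a log2 fold change of 1.48 (SE 0.29, edgeR quasi-likelihood, adjusted p = 0.0133). Leaving out KO library 1 ended the call (1.26, adjusted p = 0.0611). Peg3 had 3, 2, 6 and 11 counts in the same 4 libraries. In footprints the order was the other way, with Peg3 at 551 to 1868 counts and Peg3os, the shorter entry, at 0. Reads of this sense and antisense pair cannot be told apart either.

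**Figure D3:**
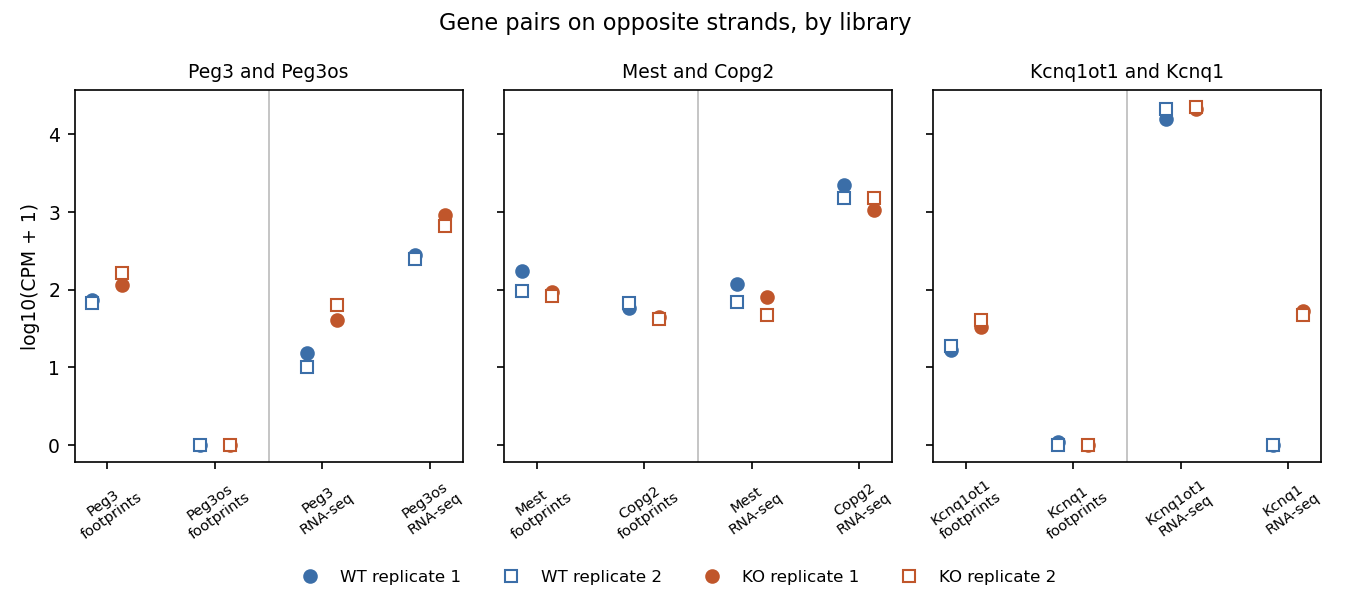
Level as log10(CPM + 1) of 3 pairs of genes on opposite strands, in footprints (left of the grey line) and in the RNA-seq tables (right of it), with WT in blue, KO in orange, circles for replicate 1 and squares for replicate 2. Peg3 stands above Peg3os in footprints and below it in RNA-seq, and Kcnq1 lies below Kcnq1ot1 in both assays, with 8 counts in each KO RNA-seq library and 0 in each WT RNA-seq library.

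Zrsr1 stood at 185 and 237 CPM in WT and 59.1 and 46.1 CPM in KO in the RNA-seq tables, from 39, 52, 9 and 8 counts. The groups were well apart, with a log2 fold change of -2.08 (SE 0.43, edgeR quasi-likelihood, adjusted p = 0.0170), and DESeq2 gave -2.11 with an adjusted p of 0.0522. Exons of Zrsr1 and of Commd1 overlap by 412 bases on opposite strands. Commd1 had 0 counts in the RNA-seq tables and 66.9 and 92.6 CPM in WT and 56.0 and 68.4 CPM in KO footprints. Grb10 stood at 23.7 and 31.9 CPM in WT and 112 and 110 CPM in KO, from 5, 7, 17 and 19 counts (1.88, adjusted p = 0.0586).

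Kcnq1ot1 had the most RNA-seq counts of the 32 genes, over an annotated length of 83437 bases, with 15522 and 21402 CPM in WT and 20998 and 22208 CPM in KO. The groups overlapped (0.14, SE 0.21, adjusted p = 0.757), and without WT library 1 the sign reversed (-0.06). Kcnq1, which overlaps it by 121 exon bases on the opposite strand, had 0 counts in both WT and 8 counts in both KO libraries and was below the filter. Mest stood at 118 and 68.3 CPM in WT and 78.8 and 46.1 CPM in KO (-0.69, adjusted p = 0.499). Copg2, a coat protein gene that overlaps Mest tail to tail by 912 bases, stood at 2195 and 1494 CPM in WT and 1051 and 1494 CPM in KO (-0.63, adjusted p = 0.174). In footprints Copg2 stood at 58.0 and 66.4 CPM in WT and 43.3 and 41.4 CPM in KO, and its deposited TPM was below that of Mest in each of the 4 libraries. Nnat (-0.21) and Gnas (0.53) rested on 8 to 21 counts per library and did not pass the test.

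**Figure D4:**
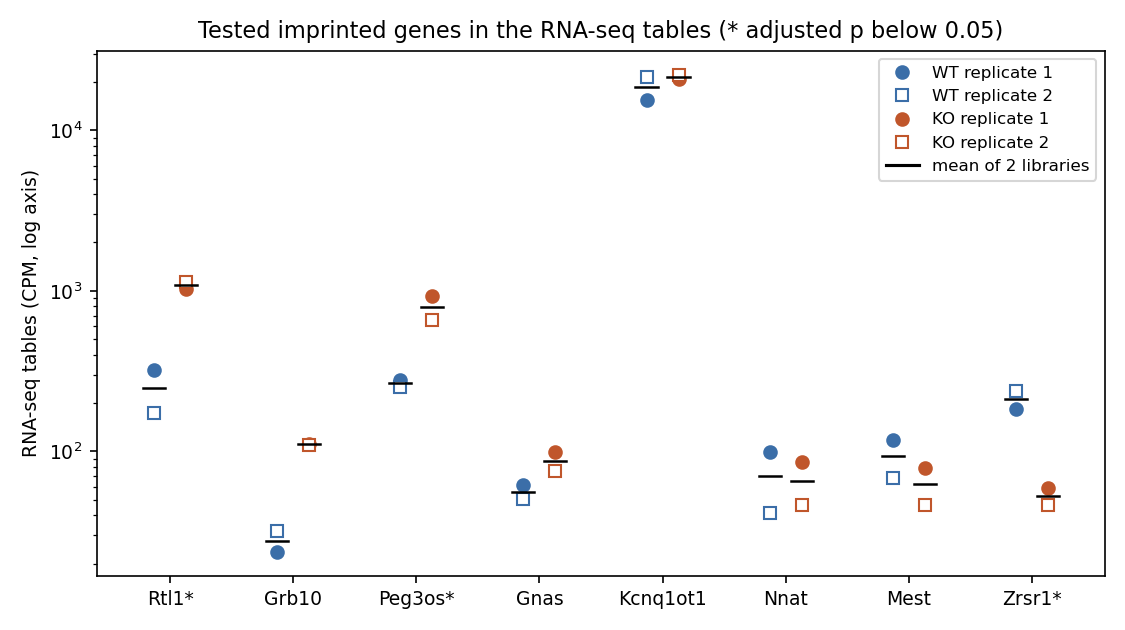
CPM in the RNA-seq tables on a log axis for the 8 tested imprinted genes, ordered by fold change, with WT in blue, KO in orange and a black bar at the mean of 2 libraries. The KO points of Rtl1 and Peg3os lie above and those of Zrsr1 below their WT points, and Kcnq1ot1 lies between 15522 and 22208 CPM in all 4 libraries.

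Genes with an exon overlap on the opposite strand were described over the whole WT tables, since several imprinted genes have such partners. Among 1169 genes with at least 100 bases of overlap and both partners above 1 CPM in footprints, the median RNA-seq level was 14.1 CPM. In 8688 genes without such overlap, themselves above 1 CPM in footprints, it was 4.64 CPM. In WT RNA-seq 3 counts corresponded to 14.2 and 13.7 CPM, so both medians were near or below that floor. Across these 1169 genes, which are not independent replicates, the rank correlation of the RNA-seq level with the gene's own footprints was 0.14. With the footprints of the partner times the overlap it was 0.26. These correlations are not like measures, since only the second includes the overlap length, and the strand of the reads was not tested. The RNA-seq values above are those of the entries with these names.

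Footprints relative to RNA-seq counts, or translational efficiency, could be fitted for only 6 imprinted genes. Zrsr1 was called higher (2.33, SE 0.49, edgeR quasi-likelihood interaction, adjusted p = 0.0176), where 9.12% of 1458 tested genes were called, 4.73% higher and 4.39% lower. Its RNA-seq entry fell, while its footprints overlapped between genotypes. Reads of Zrsr1 and of Commd1 on the opposite strand cannot be told apart in that entry. The value of Zrsr1 therefore need not be an efficiency of its own mRNA. Kcnq1ot1 (0.99, adjusted p = 0.0608), Grb10 (-1.44, adjusted p = 0.0906), Nnat (0.96, adjusted p = 0.366), Gnas (0.29, adjusted p = 0.715) and Mest (0.13, adjusted p = 0.918) did not pass the test. For Peg3, Magel2 and most of the others no efficiency could be computed, because their RNA-seq counts were too few.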

How the data were processed

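Bowtie2 (version 2.3.4.3), RSEM and mm10 are listed in the submitters' processing notes, and a small RNA kit in the labels' protocols. Strand settings were not given in the sources used here. Each of the 8 deposited tables holds expected counts per gene, per the file headers, which RSEM splits between entries that share reads. Deposited TPM values served to compare levels between genes, and deposited FPKM values and effective lengths played no part. Tests used the expected counts after rounding to integers.

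KO was compared with WT by the edgeR 4.0.16 quasi-likelihood test (R 4.3.3, TMM scaling, filterByExpr with a minimum count of 10, Benjamini-Hochberg adjustment over all genes tested, called below 0.05), for each assay apart. Translational efficiency was the interaction of assay and genotype over all 8 libraries. No value was adjusted over the imprinted genes alone and no set test was made. The genes and the lists beside them were chosen with earlier results of these data known. Every one of the 32 genes was accounted for, and of each other list the called genes up to 5, or else the 2 with the highest mean CPM, were named. Further genes were named after their values were seen.

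Replicates of a group differed by more than sampling noise (chi-square per degree of freedom 3.87 to 26.1). Floors of 3 counts cover counting error only. The scripts were tested on simulated data. Positions and overlaps came from GENCODE M21 and RefSeq on GRCm38, in which 31 and 32 of the 32 symbols matched. Promoter and microRNA sequences came from RefSeq (GRCm38.p6). Of the 32 genes 24 had a promoter entry, with 36 windows. Alternatives were DESeq2 1.42.0, RLE scaling, a fit with no filter or with a minimum mean count of 50, a replicate block, removal of Rn45s or of chromosome medians, and leaving out each library.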

Additional observations from a re-analysis of the deposited data

Results flagged for a closer look

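Zrsr1 differed between the assays, with a difference in log2 fold change of 2.33 (edgeR quasi-likelihood interaction, adjusted p = 0.0176). Its RNA-seq entry was lower in both KO libraries (-2.08), and its footprints overlapped between the genotypes (0.19). The strand of the reads in that entry is not known, so the difference need not be one of translation. The call was lost without KO RNA-seq library 1 (adjusted p = 0.0614), without KO RNA-seq library 2 (0.0775) and without KO Ribo-seq library 2 (0.0841).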

How the results depend on the processing

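Of 450 values of named genes recomputed under the alternatives, 404 kept their direction and their side of the threshold, 15 lost and 16 gained a call, and 15 reversed. The cause was not tested unless the setting itself tests fewer genes or libraries. Genes called in footprints (301) became 1110 with no filter, 186 at a mean count of at least 50, and 189 to 761 leaving out 1 library (189 without KO library 2, 761 without WT library 1, 505 without WT library 2). The 4 imprinted calls in footprints became 2 with chromosome medians removed and 1 to 6 leaving out 1 library (1 without KO library 2, 2 without KO library 1), with 1 gene, Mest, called lower with no filter and without WT library 2, and the median of 0.39 ran from 0.34 (without WT library 1) to 0.50 (chromosome medians removed). In the RNA-seq fit, 133 calls became 75 with DESeq2, 76 at a mean count of at least 50 and 73 to 242 leaving out 1 library (73 without KO library 1, 242 without WT library 1). The 3 imprinted calls there ran from 2 to 4. In translational efficiency 133 calls became 18 at a mean count of at least 50 and 15 to 111 leaving out 1 library, and the 1 imprinted call became 0 and 0 to 2.

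With chromosome medians removed, the footprint values of Impact (-0.037) and Peg10 (0.1133) changed sign. Leaving out 1 library turned the sign of uncalled values in several genes. In footprints, Impact ran from -0.0405 (without WT library 2) to 0.0999, Slc38a4 from -0.0068 (without WT library 2) to 0.3197, and Phlda2 from -0.1574 (without KO library 2; -0.1331 without WT library 1) to 0.383. Usp29 ran from -0.4556 to 0.2016 (without WT library 2; 0.152 without KO library 1) and Zrsr1 from -0.144 (without KO library 2) to 0.454. In RNA-seq, Kcnq1ot1 ran from -0.0645 (without WT library 1) to 0.2988 and Nnat from -0.7889 to 0.572 (without WT library 1; 0.1552 without KO library 2). In translational efficiency, Mest ran from -0.3214 (without WT RNA-seq library 1) to 0.6248, with -0.2334 without WT Ribo-seq library 2 and -0.2244 without KO RNA-seq library 2.

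The titles number replicates alike across groups, with only 2 pairs, and the footprint tables' names share a tag by number. Deviations of same-numbered libraries correlated at 0.43 in footprints (12157 genes) and 0.07 in the RNA-seq tables (1856 genes). With the replicate block, calls became 2960 in footprints, with 13 imprinted genes (11 higher, 2 lower), and 2 imprinted genes were called in translational efficiency. The 3 imprinted calls in the RNA-seq tables stayed 3 in number. Of the 32 genes, 23 had under 10 RNA-seq counts in every library, and whether depth was the cause was not tested. Levels scaled to the library total also differed between the assays, in both directions. In WT replicate 1, Impact stood at 14.2 CPM in RNA-seq and 159 CPM in footprints, and Kcnq1ot1 at 15522 and 15.9 CPM.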
